A study of Homo sapiens with 4 samples.

Results

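The interferon regulatory factors (IRFs) measured here were IRF1, IRF2, IRF3, IRF4, IRF5, IRF7, IRF8 and IRF9, taken as all probes that the platform annotation assigns to 1 of these 8 gene symbols. They had 12 probes among the 47230 complete probes of the arrays, which was 1 probe each for IRF1, IRF3, IRF4, IRF8 and IRF9, 2 for IRF2, 2 for IRF5 and 3 for IRF7. RNA came from L591, a Hodgkin lymphoma cell line, and was read on 4 Illumina bead arrays. In the mock group (2 arrays) the cells received 40 µg of the empty plasmid pcDNA3, and in the PDLIM2 group (2 arrays) 40 µg of pcDNA3 carrying PDLIM2 transcript variant 2. Both groups also received 10 µg of the GFP plasmid pEGFP-N3 and were sorted for GFP, so both had taken up plasmid DNA and no untransfected cells were analysed here. The arrays of a group are numbered 1 and 2 in the labels, which do not state separate cultures. The p-values therefore rest on the spread between samples that may be technical repeats. The question of the comparison is how transcript levels in cells given PDLIM2 stand against those in mock cells.

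IRFs are transcription factors that share an N-terminal DNA-binding domain and bind repeats of GAAA in the promoters of interferon genes and interferon-stimulated genes. IRF3, IRF5 and IRF7 wait in the cytoplasm and are phosphorylated when sensors detect nucleic acid, IRF9 acts in the complex ISGF3 behind interferon receptors, and IRF1 is itself induced by STAT and NF-kB factors and opposed by IRF2. IRF4 and IRF8 belong to lymphoid and myeloid cells, where IRF4 drives the activated and plasma cell programme, and IRF4 and IRF5 are known for their high levels in Hodgkin cells.

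IRF1 and IRF9 were the members whose probes above the brightness filter read lower in both PDLIM2 arrays than in both mock arrays, and their promoters are shown because both hold a match to GAS, the gamma-activated site that STAT dimers bind. The pair was picked after these values were seen. The windows are RefSeq promoters of 300 bases (GRCh38.p14, 250 bases before to 50 after the annotated start), written 5′ to 3′ along the gene's strand, at chr5:132490724-132491023 on the minus strand for IRF1 and at chr14:24161015-24161314 on the plus strand for IRF9. Capitals mark the match to TTCNNNGAA, which reads the same on both strands.
IRF1: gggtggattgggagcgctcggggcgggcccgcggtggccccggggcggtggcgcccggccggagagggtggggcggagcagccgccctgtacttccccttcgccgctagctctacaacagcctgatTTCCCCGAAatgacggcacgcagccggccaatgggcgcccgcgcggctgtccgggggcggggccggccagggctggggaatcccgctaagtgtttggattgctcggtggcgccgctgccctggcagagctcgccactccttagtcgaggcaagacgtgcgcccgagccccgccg
IRF9: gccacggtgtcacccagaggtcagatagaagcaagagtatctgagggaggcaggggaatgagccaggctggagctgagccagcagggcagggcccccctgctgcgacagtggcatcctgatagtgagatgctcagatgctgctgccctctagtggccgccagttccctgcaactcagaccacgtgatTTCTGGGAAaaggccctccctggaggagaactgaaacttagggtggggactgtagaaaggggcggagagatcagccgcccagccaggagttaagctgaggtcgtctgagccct
The match spans the bases 124 to 116 before the start of IRF1 and 63 to 55 before the start of IRF9. RefSeq windows were at hand for 5 of the 8 members, 9 windows in all, and the other 7 windows, of IRF4, IRF5 and IRF8, held no GAS match. Over all 35116 windows of this length 7.66% held one. An NF-kB pattern, GGG and CC with 5 bases between them, searched on both strands, matched in 7 of the 9 member windows and in 58.7% of all windows, and the core of the interferon-stimulated response element, 2 copies of GAAA with 2 bases between them, searched the same way, matched in 0 of the 9 and in 3.57% of all. IRF2, IRF3 and IRF7 are named only. A match describes the letters of the window and not binding, which was not measured.

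The deposited values are log2 intensities, with nearly the same quartiles on all 4 arrays. Without detection values, the distance of a dim probe from background cannot be given. Of the Hodgkin cell markers, all 12 passed the brightness filter (a mean above 5.99 log2 units, the median of all probes), with FSCN1 and CCL22 among the brightest probes of the array, but CCL17 (5.71 to 6.44) and TNFRSF8, which encodes CD30 (6.44 to 7.05), were dim. Of the 7 B-cell markers read, 5 passed the filter, the brighter of them CD79A (11.57 to 11.92), CD79B (9.11 to 9.36) and CD22 (8.36 to 9.22). MS4A1 (5.90 to 6.24) and BLK (6.01 to 6.13) passed close to the filter, while PAX5 and POU2AF1 lay under it. CD3D, CD3E and CD3G lay under the filter, as did LYZ and MPO, while the T-cell marker CD2 read 11.59 to 12.17. In all, 3 of the 8 T and NK cell markers passed the filter, CD2, NKG7 (7.34 to 7.55) and GZMB (6.66 to 7.45). Of the 8 myeloid markers, 4 passed: CD68 (7.85 to 8.61), CSF1R (6.95 to 7.63), CD14 (6.25 to 6.67) and ITGAM (5.92 to 6.20). The mean of the Hodgkin markers was 11.44 to 11.75 in the mock arrays and 11.55 to 11.69 in the PDLIM2 arrays. Among them CD83, an activation marker of B cells and dendritic cells, read 13.05 and 13.03 with the mock plasmid and 12.58 and 12.19 with PDLIM2, a difference of -0.65 (SE 0.19, unadjusted p = 0.0117 in limma) with groups that did not overlap. It was singled out after its values were seen, and was 1 of the 12 with such a p under 0.05 (8.33%). Of the 12417 genes tested on their brightest probe, 3.34% had such a p. The PDLIM2 group lay below the mock group without overlap for 12.8% of the tested probes. The transfected gene PDLIM2 had 2 dim probes with differences of 0.31 (SE 0.18) and -0.29 (SE 0.15), PDLIM2 minus mock, so the labels could not be checked from it. In such bulk samples fewer cells of a type and less RNA per cell cannot be told apart.

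Of the 12 IRF probes, 11 passed the filter, with at least 1 for each of the 8 genes. IRF1 was the member with the widest difference, at 0.559 times its mock level, and the other 10 probes that passed lay between -0.22 and 0.38 log2 units, PDLIM2 minus mock. No IRF probe was called by limma (adjusted p = 0.9998 for each), and over all 23615 tested probes limma called 0 higher and 0 lower (0% in each direction), also with its trended and its robust prior. Of the 11 probes, 6 had higher values (52.8% of the tested probes) and 5 had lower ones (47.2%). At an unadjusted p under 0.05, IRF1 was lower (411 tested probes, 1.74%) and 0 IRF probes were higher (254, 1.08%), against 665 tested probes in either direction (2.82%). Past 1.5-fold, IRF1 was again lower (1.64%) and 0 IRF probes were higher (0.449%). The groups did not overlap for 7 of the 11 probes, with PDLIM2 the higher group for 5 (15.8% of the tested probes) and the lower group for 2 (12.8%). The 5 were the IRF3 and IRF4 probes, both IRF5 probes and 1 IRF2 probe. For the brighter IRF5 probe (ILMN_2312606) this was almost a tie, with 10.424 as the highest mock and 10.4246 as the lowest PDLIM2 value. With 2 arrays against 2, an exact permutation test of a single probe cannot go below p = 0.333 (two-sided).

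**Figure D1:**
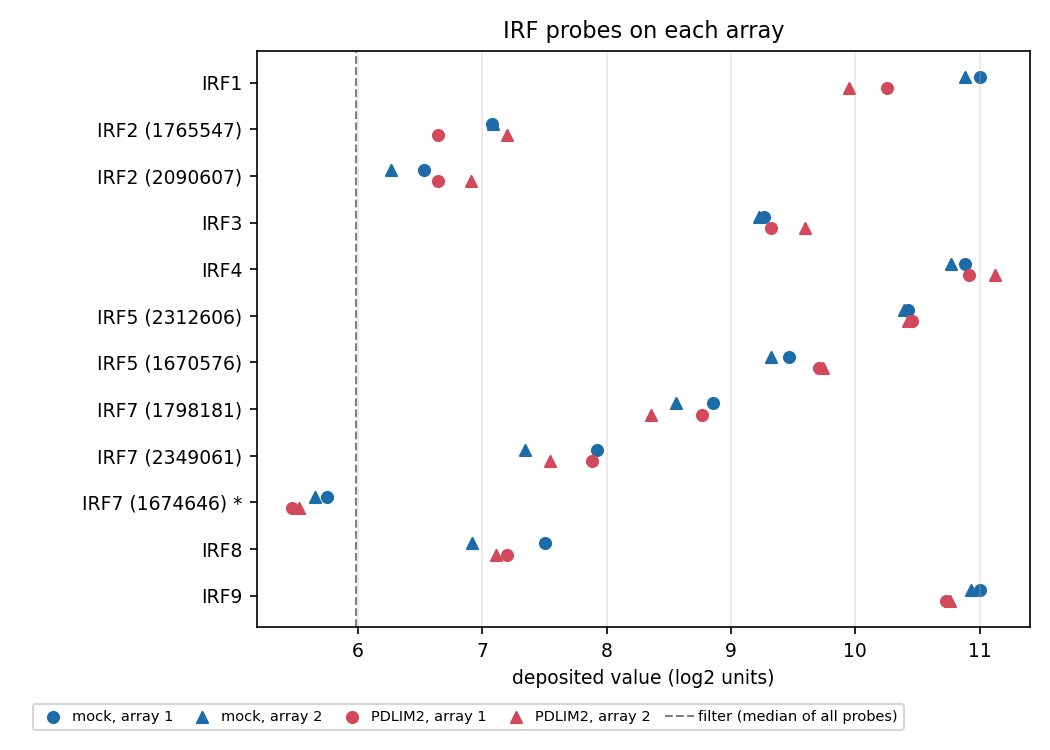
The deposited value (log2 units) of each of the 12 IRF probes on each array, with blue for mock, red for PDLIM2, circles for array 1, triangles for array 2, and the filter at 5.99 as a dashed line. Both IRF1 values of the PDLIM2 arrays (10.25 and 9.95) lie left of both mock values (11.00 and 10.88), the other members' values lie closer together, and the IRF7 probe with an asterisk is under the filter.

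IRF1, the activator of interferon-gamma and MHC class I genes, read 11.00 and 10.88 log2 units with the mock plasmid (arrays 1 and 2) and 10.25 and 9.95 with PDLIM2 (arrays 1 and 2). The groups did not overlap, and the lower mock value exceeded the higher PDLIM2 value by more than the arrays of either group differed from each other. The means were 10.94 ± 0.08 and 10.10 ± 0.22 (SD, n = 2 each), which differ by -0.84 (SE 0.19, 95% interval from -1.28 to -0.40). The unadjusted p was 0.00265 in limma, a smaller p was found for 44 of the 23615 tested probes, and 0.631% of them had a larger difference in either direction. The probe stood at percentile 92.6 of all probes by its mean over the 4 arrays. Without the PDLIM2 array 1 the difference was -0.99 and limma called IRF1 lower (adjusted p = 0.00677, with a range over its alternatives from 0.00677 to 0.999997). That fit has the other PDLIM2 array alone in its group and called 647 probes lower and 163 higher.

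IRF2, the repressor that competes with IRF1 for its sites, had 2 probes that pointed in opposite directions. The brighter probe (ILMN_1765547) read 7.08 and 7.09 with the mock plasmid and 6.65 and 7.20 with PDLIM2, so its groups overlapped and the PDLIM2 arrays lay on both sides of the mock arrays. Its difference was -0.16 (SE 0.22, 95% interval from -0.68 to 0.36). The dimmer probe (ILMN_2090607) read 6.53 and 6.27 with the mock plasmid and 6.65 and 6.91 with PDLIM2. Here the groups did not overlap, and the difference was 0.38 (SE 0.19, 95% interval from -0.07 to 0.83, unadjusted p = 0.0869 in limma). The annotation gives both probes the same IRF2 transcript. The 2 probes therefore give no single direction for IRF2.

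IRF3, which is made constitutively and is switched on by phosphorylation, read 9.26 and 9.23 with the mock plasmid and 9.32 and 9.60 with PDLIM2. Both PDLIM2 values were higher, but the 2 PDLIM2 arrays differed from each other by 0.27, more than the difference between the groups (0.22, SE 0.18, 95% interval from -0.21 to 0.64). IRF7, the factor that amplifies type I interferon production, had 3 probes. The brightest (ILMN_1798181) read 8.86 and 8.56 with the mock plasmid and 8.77 and 8.36 with PDLIM2, a difference of -0.14 (SE 0.21, 95% interval from -0.64 to 0.36). The next (ILMN_2349061), annotated to the same transcript, read 7.93 and 7.34 against 7.88 and 7.54, a difference of 0.08 (SE 0.24). In both of these probes the groups overlapped and array 2 was the lower array in each group. The third (ILMN_1674646), annotated to another IRF7 transcript, was under the filter at 5.75 and 5.66 against 5.47 and 5.53, a difference of -0.20 (SE 0.15) that comes from the limma fit on all 47230 probes. Its values lie near the dim end of the array, at percentile 14.3 of all probes.

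IRF5, which acts behind Toll-like receptors through MYD88, had 2 bright probes annotated to different transcripts. The brighter (ILMN_2312606) read 10.42 and 10.39 with the mock plasmid and 10.45 and 10.42 with PDLIM2. Its difference was 0.03 (SE 0.16, 95% interval from -0.36 to 0.42), and its 4 values spanned 0.06 log2 units, the narrowest range among the 12 IRF probes. The other (ILMN_1670576) read 9.47 and 9.32 against 9.71 and 9.74, with no overlap, a difference of 0.33 (SE 0.17, 95% interval from -0.07 to 0.72, unadjusted p = 0.0925 in limma). The 2 IRF5 probes had the same sign and differed in size.

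IRF4, the lymphoid member of activated B cells and plasma cells, read 10.88 and 10.77 with the mock plasmid and 10.92 and 11.12 with PDLIM2. The highest mock value lay 0.03 log2 units under its same-numbered PDLIM2 array. The means were 10.83 ± 0.08 and 11.02 ± 0.15 (SD, n = 2 each), which differ by 0.19 (SE 0.18, 95% interval from -0.22 to 0.60). IRF8, its closest relative, which guides germinal centre B cells and myeloid cells, read 7.50 and 6.91 with the mock plasmid and 7.20 and 7.11 with PDLIM2. Both PDLIM2 values lay between the 2 mock values, and the difference was -0.05 (SE 0.23, 95% interval from -0.59 to 0.48). The IRF4 probe stood at percentile 94.2 and the IRF8 probe at percentile 72.2 of all probes, which orders brightness and not transcript number, since probes differ in how well they bind.

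IRF9, the DNA-binding subunit of ISGF3, read 11.01 and 10.93 with the mock plasmid and 10.73 and 10.76 with PDLIM2. The groups did not overlap, and within each group the arrays differed by less than 0.1 log2 units. The means were 10.97 ± 0.05 and 10.74 ± 0.02 (SD, n = 2 each), which differ by -0.22 (SE 0.17, 95% interval from -0.61 to 0.17, unadjusted p = 0.218 in limma), or 0.857 times the mock level. The size of the difference exceeded the larger gap within a group for 4 of the 11 IRF probes that passed the filter, IRF1, IRF9, IRF5 (ILMN_1670576) and IRF2 (ILMN_2090607), and for 17.4% of the tested probes. The intervals of the 11 probes were 0.775 to 1.15 log2 units wide, and all but that of IRF1 included 0.

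**Figure D2:**
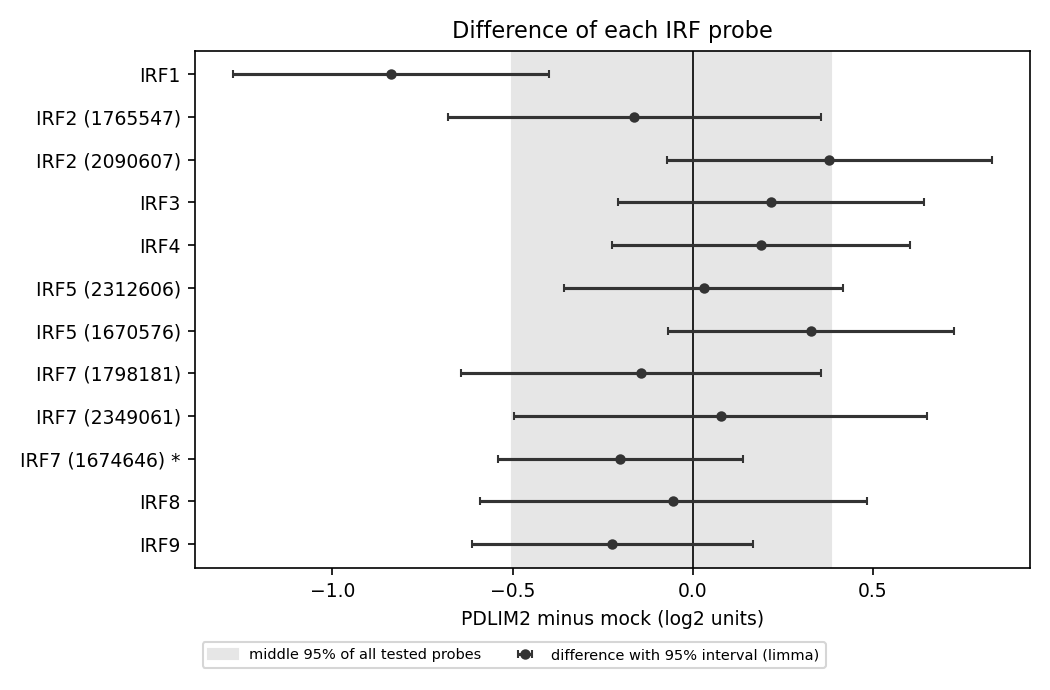
PDLIM2 minus mock (log2 units) of each of the 12 IRF probes, with points for the limma estimate, bars for its 95% interval and a grey band for the middle 95% of the differences of all tested probes (-0.50 to 0.38). IRF1 at -0.84 lies outside the band with an interval that ends at -0.40, and the other 11 probes have intervals that include 0.

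Between the array numbers, 3918 tested probes (16.6%) had an unadjusted p under 0.05 in a limma fit on the number alone, against 665 (2.82%) for PDLIM2 minus mock, so the comparison was also read within each number. Between the arrays numbered 1, PDLIM2 minus mock was -0.74 for IRF1 and -0.28 for IRF9, and between those numbered 2 it was -0.93 and -0.17. IRF3 differed by 0.06 and 0.37, IRF4 by 0.03 and 0.35, and IRF5 (ILMN_1670576) by 0.24 and 0.41 between the arrays numbered 1 and 2. IRF8 and the brighter IRF2 probe changed sign between the numbers, at -0.31 and 0.20 for IRF8 and at -0.43 and 0.11 for IRF2, as did the IRF7 probe ILMN_2349061 at -0.04 and 0.20. The sign was the same at both numbers for 8 of the 11 probes that passed the filter and for 54.6% of the tested probes. With the array number as a replicate block the IRF1 difference had an unadjusted p of 0.000542 in limma (adjusted p = 0.261), and IRF1 was again the 1 IRF probe under 0.05 before adjustment.

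**Figure D3:**
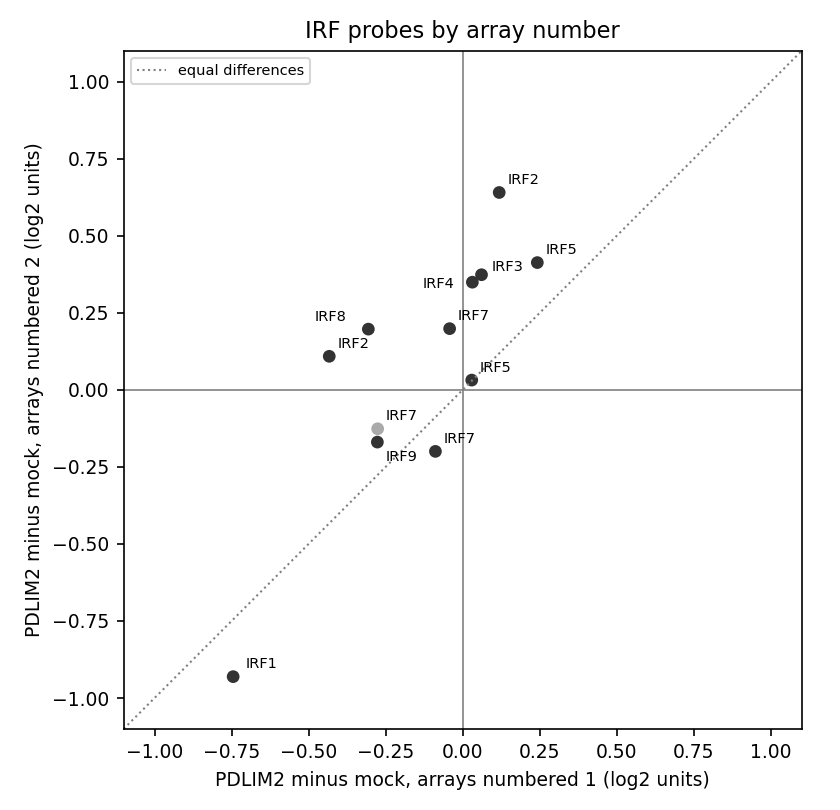
PDLIM2 minus mock (log2 units) of each IRF probe between the arrays numbered 1 (horizontal) and between those numbered 2 (vertical), with black points for probes that passed the filter, a grey point for the dim IRF7 probe and a dotted line of equal differences. IRF1 lies near that line at -0.74 and -0.93, while 3 of the 11 probes that passed the filter lie where the signs differ.

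The genes that act before the IRFs were grouped as interferons, interferon receptors with their JAK kinases, and adaptors and kinases that activate IRFs, each gene being read on its brightest tested probe. Of the 18 interferon genes, 2 passed the filter, IFNW1 at 0.02 and IFNA21 at -0.22, both close to the filter in level. The interferon-alpha genes are near-identical, so the IFNA21 value is uncertain. Of the 9 tested genes for receptor chains and JAK kinases, out of 11 listed, 7 read lower and 2 higher, with a median difference of -0.09, where 44.5% of the 12417 tested genes had lower values and their median was 0.02. No gene of these lists was called by limma (0%, adjusted p = 0.9998 for each). JAK1, a kinase bound to all interferon receptors, read 9.47 and 9.83 with the mock plasmid and 9.29 and 8.65 with PDLIM2, a difference of -0.68 (SE 0.25, unadjusted p = 0.0312 in limma). Its groups did not overlap, and the PDLIM2 array 2 was the lowest. IFNGR2, the signalling chain of the interferon-gamma receptor, differed by -0.40 (SE 0.19). IL10RB, a chain shared with the interferon-lambda receptor, differed by -0.28 (SE 0.29) on the brighter of 2 tested probes, and the other did not share this sign. The IL10RB groups overlapped, at 11.75 and 11.51 with the mock plasmid and 11.79 and 10.92 with PDLIM2.

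The 15 tested adaptors and kinases had 8 higher and 7 lower values with a median of 0.01. At an unadjusted p under 0.05 there were 3 of them, or 20% of the list, where 3.34% of the tested genes had such a p. TANK, an adaptor that binds the IRF3 kinase TBK1, read 11.25 and 11.49 with the mock plasmid and 10.85 and 10.70 with PDLIM2, and its difference of -0.59 (SE 0.18) had the same sign in all 4 of its tested probes. TRAF6, a ubiquitin ligase behind MYD88, differed by -0.68 (SE 0.24) on the brighter of 2 probes that had the same sign. IRAK1, a kinase of the same route, stood in the other direction at 0.59 (SE 0.24), with 10.29 and 10.40 in the mock arrays against 10.60 and 11.28. These 3 genes, all tied to the routes that activate IRF3, IRF5 and IRF7, thus did not share a direction.

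The 15 tested IRF cofactors and brakes had 8 higher and 7 lower values with a median of 0.02, and 0 of them had an unadjusted p under 0.05. IRF2BP1, a corepressor that binds IRF2, read 7.61 and 7.57 with the mock plasmid and 7.75 and 8.49 with PDLIM2, a difference of 0.53 (SE 0.26) to which the PDLIM2 array 2 gave most. Its relative IRF2BPL differed by -0.31 (SE 0.19). SPIB, an ETS factor that binds DNA together with IRF4 and IRF8, differed by 0.30 (SE 0.21) with overlapping groups.

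Targets of ISGF3 and IRF1 were read next. Of the 37 tested genes, 20 read higher and 17 lower, with a median of 0.02. An unadjusted p under 0.05 in limma was found for 1 of them (2.7% of the list), against 3.34% of all tested genes. That gene was OASL, an interferon-induced antiviral protein, which read 10.92 and 10.25 with the mock plasmid and 9.98 and 9.62 with PDLIM2, a difference of -0.78 (SE 0.26). Both of its tested probes had the same sign, and array 2 was lower than array 1 in each group. IFIT2, an interferon-induced inhibitor of translation, differed by -0.51 (SE 0.34) with overlapping groups. It read 11.37 and 10.76 with the mock plasmid and 11.01 and 10.1 with PDLIM2. Array 2 of IFIT2 was thus also lower in each group, and the PDLIM2 array was the lower one at each number. CIITA, the coactivator of MHC class II genes, which IRF1 induces in response to interferon-gamma, read 8.39 and 8.80 with the mock plasmid and 8.81 and 9.16 with PDLIM2, a difference of 0.39 (SE 0.22). The highest mock value and the lowest PDLIM2 value of CIITA lay within 0.01 log2 units of each other.

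The 16 tested targets of IRF4 and IRF8 in B cells had 7 higher and 9 lower values with a median of -0.07. Of these 16, 2 had an unadjusted p under 0.05 in limma (12.5% of the list), against 3.34% of the tested genes. BCL6, the germinal centre repressor, read 11.44 and 11.43 with the mock plasmid and 10.91 and 10.72 with PDLIM2, a difference of -0.62 (SE 0.17). SQSTM1, an autophagy receptor, read 12.64 and 12.58 against 12.19 and 11.90, a difference of -0.56 (SE 0.18). For both genes the groups did not overlap and the 2 arrays of a group lay closer together than the groups did. The PDLIM2 group lay below the mock group without overlap for 12.8% of the tested probes. CIITA, which this list also holds, is given above.

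**Figure D4:**
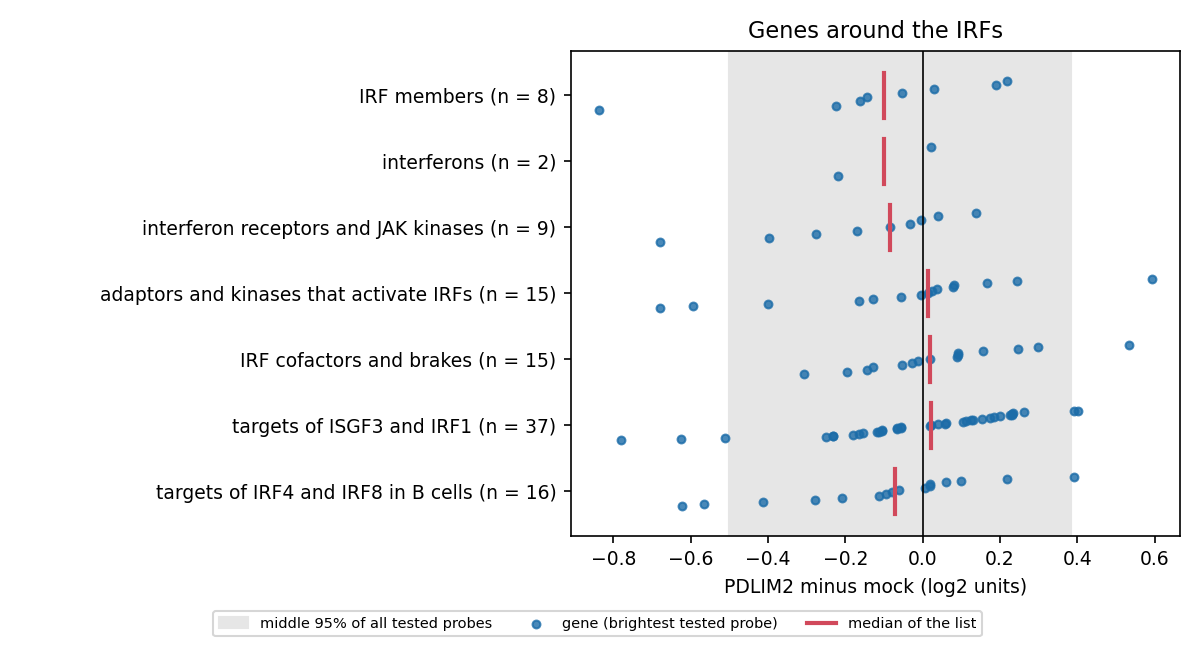
PDLIM2 minus mock (log2 units) of each gene of the IRF list and of the 6 lists around it, with a point for each gene's brightest tested probe, a red line for the median of the list and a grey band for the middle 95% of all tested probes (-0.50 to 0.38). The medians lie between -0.10 and 0.02. IRF1, OASL, JAK1, TRAF6 and BCL6 are among the points to the left of the band, and IRAK1, IRF2BP1 and CIITA among those to the right.

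IRF1 and IRF8 were the members whose brightest probe had the widest range over the 4 arrays (1.05 and 0.59 log2 units), and the genes with the nearest profiles to them were found by the root mean square distance over the 4 arrays after each profile was centred on its mean. CHIC2, a membrane protein with a cysteine-rich domain, was nearest to IRF1 at a distance of 0.034 log2 units, with 11.47 and 11.28 with the mock plasmid and 10.72 and 10.35 with PDLIM2. OSER1, a gene of the oxidative stress response, followed at 0.042 and DNAJB4, a heat shock co-chaperone, at 0.053. Their differences were -0.84 (CHIC2), -0.77 (OSER1) and -0.93 (DNAJB4), and their nearness to that of IRF1 follows from the choice by profile. DNAJB4 was dim, at 7.12 and 7.06 with the mock plasmid and 6.33 and 5.99 with PDLIM2, the last close to the filter. Nearest to IRF8 were DTNA at 0.011, DACT3 at 0.019 and DNAAF3 at 0.020, whose values lay between 5.91 and 6.69 and so near the filter. With 4 arrays many probes can have a similar profile, and the likeness is a description.

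**Figure D5:**
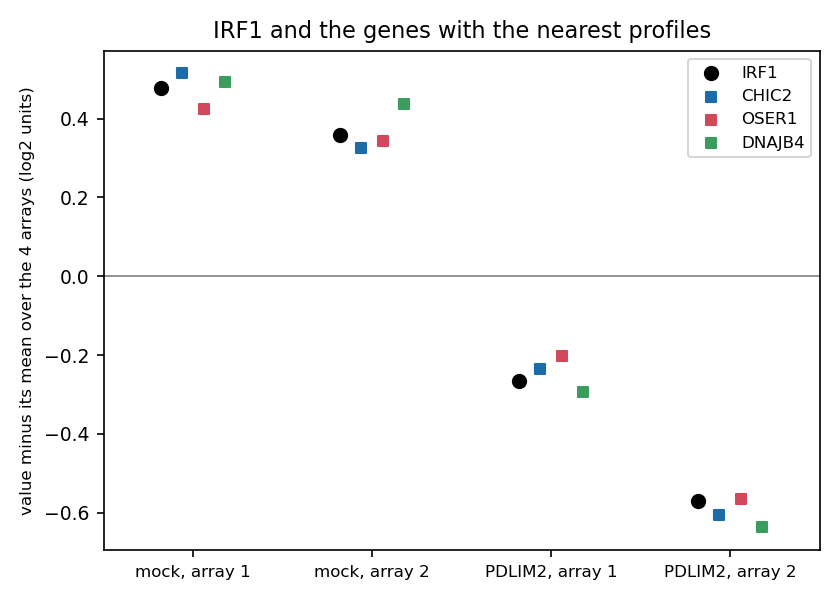
The value of IRF1 (black circles) and of the genes CHIC2, OSER1 and DNAJB4 (coloured squares) on each of the 4 arrays, each as the log2 value minus the gene's mean over the 4 arrays. The points of the 4 genes lie above 0 in both mock arrays and below 0 in both PDLIM2 arrays. CHIC2, OSER1 and DNAJB4 were chosen for their likeness to IRF1 on these same arrays, so the shared pattern follows from that choice.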

How the data were processed

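The authors deposited Illumina bead array values of biotin-labelled polyadenylated RNA on a log2 scale. Of the steps between scan and deposit (software, background, normalization), the method is not given in the sources used here. Quartiles of the 4 arrays agreed within 0.00081 log2 units, so the deposited log2 values were used as they are. The table held 47231 probes, of which 1 had an empty cell and was left out. GEO's platform annotation gave 1 symbol to 30112 of the complete probes, several to 8, which were left unnamed, and did not list 17110. Symbols were updated through RefSeq (GRCh38.p14). Groups and array numbers come from the sample titles.

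Probes with a mean above the median (5.99) were tested, 23615 in number. The model for PDLIM2 minus mock used limma 3.58.1 (lmFit, eBayes; R 4.3.3), with Benjamini-Hochberg adjustment over all tested probes at 0.05, two-sided. There were 2 residual degrees of freedom and 5.10 from the prior. Dim probes took their values from the same fit on all probes. The scripts were tested on simulated data. Named are all IRF probes, the 3 genes of smallest unadjusted p per list, 3 genes of nearest profile for each of 2 members, and markers and PDLIM2 as checks. Gene lists got counts and medians, and no test. The members and lists were chosen with earlier results of these data known. Alternatives were other filters, normalizations, an offset of 50, other variance priors, the replicate number as a block, the mean over probes, and each array left out.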

Additional observations from a re-analysis of the deposited data

How the results depend on the processing

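The counts of 0 probes called higher, 0 called lower and 0 IRF probes called by limma held with the robust prior, limma-trend, the offset of 50, median centring, quantile normalization, no filter and a stricter filter (75th percentile). Because the deposited quartiles already agreed, quantile normalization and median centring could change little. Nothing in the labels ties arrays of 1 number beyond that number, and their deviations from the group means correlated at r = 0.476 across tested probes, which are not independent. With the replicate block limma called 0 probes higher, 1 lower and 0 IRF probes, and IRF1 had an adjusted p of 0.261. Leaving out an array leaves a lone array in its group, taken to vary like the rest. The calls then ranged from 0 to 163 higher, from 0 to 647 lower and from 0 to 1 among the IRF probes, the highest of each without the PDLIM2 array 1. Without the PDLIM2 array 2 there were 16 higher and 29 lower. The cause was not tested. With the offset, IRF5 (ILMN_1670576) joined IRF1 under an unadjusted p of 0.05 in limma. The 665 tested probes under that p were 1211 with no filter, 1811 with the replicate block and 300 to 2739 with single arrays dropped, and without the PDLIM2 array 1 they held 2 IRF probes in place of 1. IRF probes with lower values were 3 in place of 5 with the stricter filter, which tests fewer of them, and without the mock array 1.

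The IRF1 difference lay from -0.99 to -0.69 when 1 array was dropped and from -0.84 to -0.81 under the other alternatives. IRF3, IRF4, IRF9, both IRF5 probes, the dimmer IRF2 probe and the dim IRF7 probe kept their sign under every alternative that gave them a value. The sign turned for the brighter IRF2 probe, which was 0.11 as the mean over both probes and ranged from -0.44 to 0.11 with an array left out. It also turned with an array left out for IRF7 (ILMN_1798181 from -0.35 to 0.061, ILMN_2349061 from -0.21 to 0.37) and for IRF8 (from -0.35 to 0.24). The median of the IRF list, -0.10, ranged from -0.21 to 0.03 with single arrays dropped and was 0.04 with each gene as the mean over its probes. With 2 arrays a group, all these values are imprecise.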
